A study of Mus musculus with 9 samples.

Results

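Embryonic thymic lobes of mice homozygous for the neo2 allele of Tbx1 (Tbx1neo2/neo2, here Tbx1 mutants) were compared with wild type lobes across the transcriptome. The arrays were chosen by the genotype in their labels, and they were 3 Tbx1 mutant and 3 wild type arrays of the 9 in the series. The other 3 came from lobes of Foxn1933/1089 mice (here Foxn1 mutants), which carried a different mutant allele of Foxn1 on each chromosome. All lobes were of the C57BL/6 strain at embryonic age e13.5, and total RNA was measured on Clariom S mouse arrays, with 1 deposited log2 value per feature and array. The features were the 22142 transcript clusters (groups of probes for 1 locus) among 28846 features, and every one entered the comparison. The neo2 allele is a germline hypomorph, known to lower Tbx1 expression without abolishing it. The labels name no treatment, transgene or Cre, and do not say whether a sample was 1 embryo or a pool. Nor do they state that the 3 samples of a genotype are different animals, and the p-values therefore reflect only how much these samples varied. The titles of all wild type samples begin like those of the Foxn1 mutants, so the labels do not show whether any wild type lobe was a littermate of a Tbx1 mutant.

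Tbx1 encodes a T-box transcription factor of the pharyngeal endoderm, mesoderm and ectoderm, and its loss underlies the thymus, parathyroid and outflow tract defects of DiGeorge syndrome. Thymus and parathyroid arise side by side from the third pharyngeal pouch. At this stage the thymic lobe consists of an epithelium that depends on the factor FOXN1, a capsule of neural crest mesenchyme and the first immigrant lymphoid progenitors, while the parathyroid is only just separating from it.

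The arrays were not alike in tissue make-up. Prss16, which cortical thymic epithelial cells make, read 4.24 (log2) on wild type replicate 1 but 14.43 and 13.98 on wild type replicates 2 and 3, and 13.98, 14.28 and 14.05 on the Tbx1 mutant arrays. Foxn1 read 7.78, 10.35 and 10.01 in wild type and 8.88, 10.04 and 9.70 in Tbx1 mutants. Wild type replicate 1 thus lacked a defining marker of the labelled tissue, as did Foxn1 mutant replicate 2 at 4.45. The same wild type array read 12.04 for Dbh, which makes noradrenaline in sympathetic neurons, against 3.47 and 3.31 on wild type replicates 2 and 3. Its mean over 14 leukocyte genes was 6.70, against 10.53 and 10.62, and its mean over 14 neuron and glia genes was 9.91, against 5.22 and 5.20. Wild type replicate 2 stood apart in skeletal muscle genes, with a mean of 8.0 over 15 genes against 5.21 and 4.79. The Y-linked genes Uty and Kdm5d separated Tbx1 mutant replicates 2 and 3 from the other 4 arrays: Uty read 7.56, 8.84 and 8.66 in wild type and 8.47, 3.45 and 3.66 in Tbx1 mutants, and Kdm5d followed the same pattern. In whole lobes, fewer cells of a type and less RNA per cell cannot be told apart. The sample titles carry 3 date codes, whose meaning they do not state. Code A holds Tbx1 mutant replicate 1 and wild type replicate 3, code C holds Tbx1 mutant replicates 2 and 3 and wild type replicate 1, and code B holds no Tbx1 mutant. Differences are therefore given also without wild type replicate 1, and the leading ones within codes A and C. Each difference within a code rests on 1 wild type array, which in code C is wild type replicate 1. The part of sex and of other tissues in the differences was not tested, apart from these values.

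**Figure D1:**
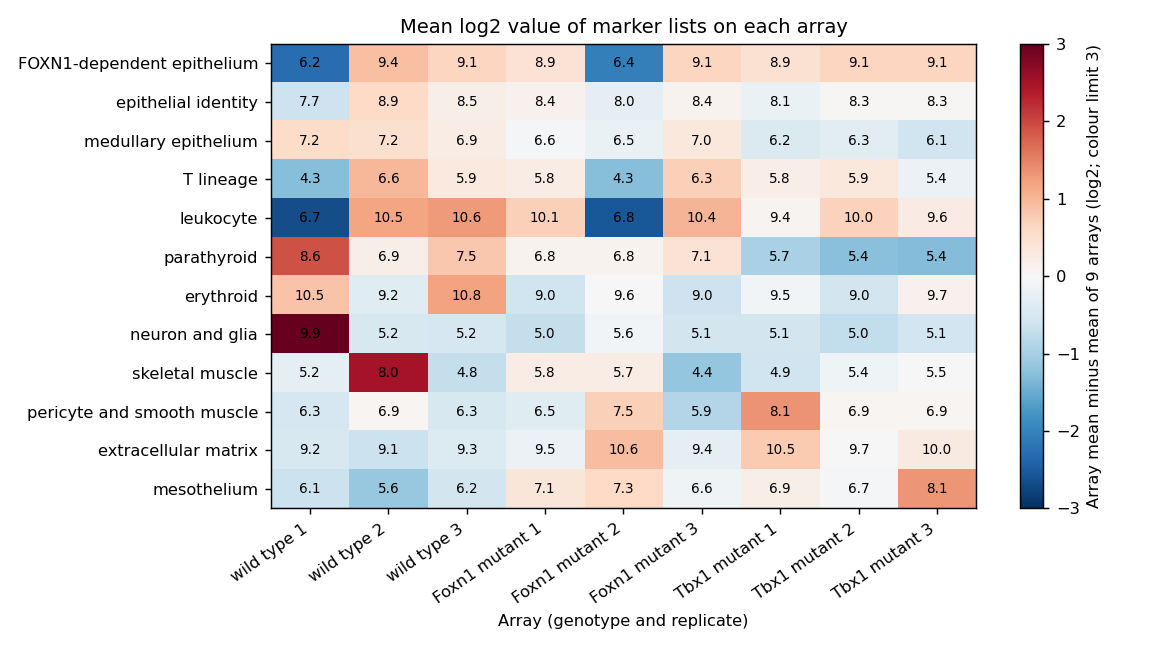
Mean log2 value of 12 marker gene lists (vertical axis) on each of the 9 arrays (horizontal axis); the printed figure in each cell is the mean, and the colour is its distance from the mean of the 9 arrays. Wild type replicate 1 and Foxn1 mutant replicate 2 are low in leukocyte and FOXN1-dependent genes, wild type replicate 1 is high in neuron and glia genes, and the 3 Tbx1 mutant arrays are the lowest in parathyroid genes.

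Few transcript clusters passed the threshold of an adjusted p under 0.05 (limma's moderated test with Benjamini-Hochberg adjustment over all clusters). With all 9 arrays in the fit, 3 of 22142 were called lower in Tbx1 mutants (0.0135%) and 0 were called higher (0%). They were Chga, Pth and Cldn7. Without wild type replicate 1, limma called 2 lower (0.00903%), Chga and Pth, and 0 higher (0%). At an unadjusted p under 0.05, 435 clusters were higher (1.96%) and 402 lower (1.82%) with all arrays, and 518 (2.34%) and 541 (2.44%) without wild type replicate 1. The 3 Tbx1 mutant arrays all lay above the 3 wild type arrays for 1147 clusters (5.18%) and all below them for 944 (4.26%). Against wild type replicates 2 and 3 alone, these counts were 2555 (11.5%) and 3005 (13.6%). The median difference over all clusters was 0.01 with all arrays and -0.01 without wild type replicate 1.

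The parathyroid hormone gene Pth and the secretory granule gene Chga fell, and the calcium-sensing receptor gene Casr was lower without passing the threshold. Pth fell by 6.62 ± 0.58 (SE), with an adjusted p of 0.00886 in limma, and by 6.20 with an adjusted p of 0.0246 without wild type replicate 1. Chga fell by 7.97 ± 0.69, with an adjusted p of 0.00886, and by 7.29 with an adjusted p of 0.0152 without that array. On all Tbx1 mutant arrays both genes were under the 90th percentile of the negative-control probes. With that percentile in place of the mutant values, Pth was at least 49.3-fold and Chga at least 24.6-fold lower (36.7-fold and 15.3-fold without wild type replicate 1). Pth differed by -6.76 within date code A and by -7.67 within code C, and Chga by -9.0 and -9.03. The code C values compare with wild type replicate 1 only. Casr differed by -5.75 ± 0.85, with an adjusted p of 0.107 (-5.21 and 0.250 without wild type replicate 1). Its mutant values were also under the negative-control 90th percentile, so Casr was at least 19.7-fold lower (13.6-fold without wild type replicate 1). The calls of Pth and Chga ended in fits on the Tbx1 mutant and wild type arrays alone, where the adjusted p was 0.126 for each. They also ended without wild type replicate 3 (adjusted p 0.0592), Tbx1 mutant replicate 2 (0.0630) or Tbx1 mutant replicate 3 (0.0978), with differences of -7.77, -8.21 and -8.05 for Chga and -6.35, -6.72 and -6.33 for Pth. With the date code as a fixed block Pth was no longer called (-6.89, adjusted p 0.0532), while Chga was (0.00511).

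The remaining genes of the parathyroid list were not called. The list held 16 genes, of which 11 were measured and 2 were called, Pth and Chga. All 11 were lower with all arrays, but without wild type replicate 1 only 6 were lower, and the median moved from -0.46 to -0.07. It was -5.75 where clusters with a mean under the median of all clusters were left out. That value is the difference of Casr itself, which was then the middle of the members left. The filter also kept genes that were dim in the mutants: Chga stayed with a mutant mean of 4.30, under the limit of 5.15. The filtered median is therefore no separate result for the list. Vdr, the vitamin D receptor, read 7.08, 7.64 and 7.75 in wild type and 6.60, 6.69 and 6.62 in the mutants. The groups did not overlap, and the difference was -0.85 ± 0.31 with an adjusted p of 1.00 (-1.06 and 0.959 without wild type replicate 1). The granule gene Scg3 read 5.89 on wild type replicate 1 and between 2.52 and 2.99 on the other 5 arrays, so its difference of -0.94 turned to 0.14 without that array. Cpe, which trims prohormones, read 17.94, 15.90 and 16.03 against 17.21, 16.10 and 16.31, with overlapping groups. A list of 13 secretory granule and endocrine genes likewise had a median of -0.37 with all arrays and 0.14 without wild type replicate 1, the array on which 12 of the 13 were highest.

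Cldn7, which encodes a claudin that seals epithelial cells to one another, was the third called gene. It read 9.94, 9.69 and 9.62 in wild type and 7.20, 7.98 and 7.65 in the mutants. Wild type replicate 1, with little thymic epithelial signal, was no lower than the other wild type arrays, and all mutant arrays also lay below the Foxn1 mutant arrays (8.95, 8.94 and 8.82). Cldn7 fell by 2.14 ± 0.23, or 4.41-fold, with an adjusted p of 0.0353 in limma. On Tbx1 mutant replicates 1 and 3 it was under the negative-control 90th percentiles of 7.39 and 7.71, so the size of the fall is uncertain. Within date code A it differed by -2.42, and within code C by -2.13. Without wild type replicate 1 the difference was -2.05 with an adjusted p of 0.121, and Cldn7 was no longer called. The call was also lost without wild type replicate 3 (-2.21, 0.116) or Tbx1 mutant replicates 1 (-1.94, 0.0701), 2 (-2.33, 0.0630) or 3 (-2.16, 0.300), with the date code as a fixed block (0.0532), after quantile normalization (0.0667) and on the 6 arrays alone (0.222).

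Other genes of the tight junction leaned the same way with smaller differences. Of 24 measured members of the claudin and tight junction list, Cldn7 included, 19 were lower and 5 higher, also without wild type replicate 1. Cldn7 was the 1 called. Only 3 of the 24 read above the negative-control 90th percentile on all wild type arrays, and 1 on all mutant arrays. The list's median was -0.28 (-0.27 without wild type replicate 1), against 0.01 over all clusters, but -0.13 without wild type replicate 2 and -0.45 without wild type replicate 3. Within date codes A and C it was -0.11 and -0.25. For 6 members the mutant arrays all lay below the wild type arrays, where 4.26% of all clusters did (9 members and 13.6% without wild type replicate 1). Cldn7 is among them, and the list was chosen with earlier results of these data known, so these counts are description only. Cldn4 read 9.0, 9.38 and 7.65 against 7.43, 7.56 and 7.05, a difference of -1.33 ± 0.46 with an adjusted p of 1.00 (-1.17 without wild type replicate 1). Cldn8 read 7.27, 7.14 and 7.34 against 6.45, 6.67 and 6.66, a difference of -0.66 ± 0.25 (-0.65 without that array). Cldn3 read 4.5, 5.46 and 4.78 against 4.26, 4.48 and 4.12. The arrays did not overlap in any of these 3, but most Cldn3 values were near the negative-control medians of 4.27 to 4.94. The occludin gene Ocln was at 5.36, 5.81 and 5.29 against 5.12, 4.91 and 5.08. Cldn5, a claudin of endothelium, leaned the other way at 6.55, 6.96 and 8.04 against 8.37, 7.63 and 7.71, with overlapping arrays.

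**Figure D2:**
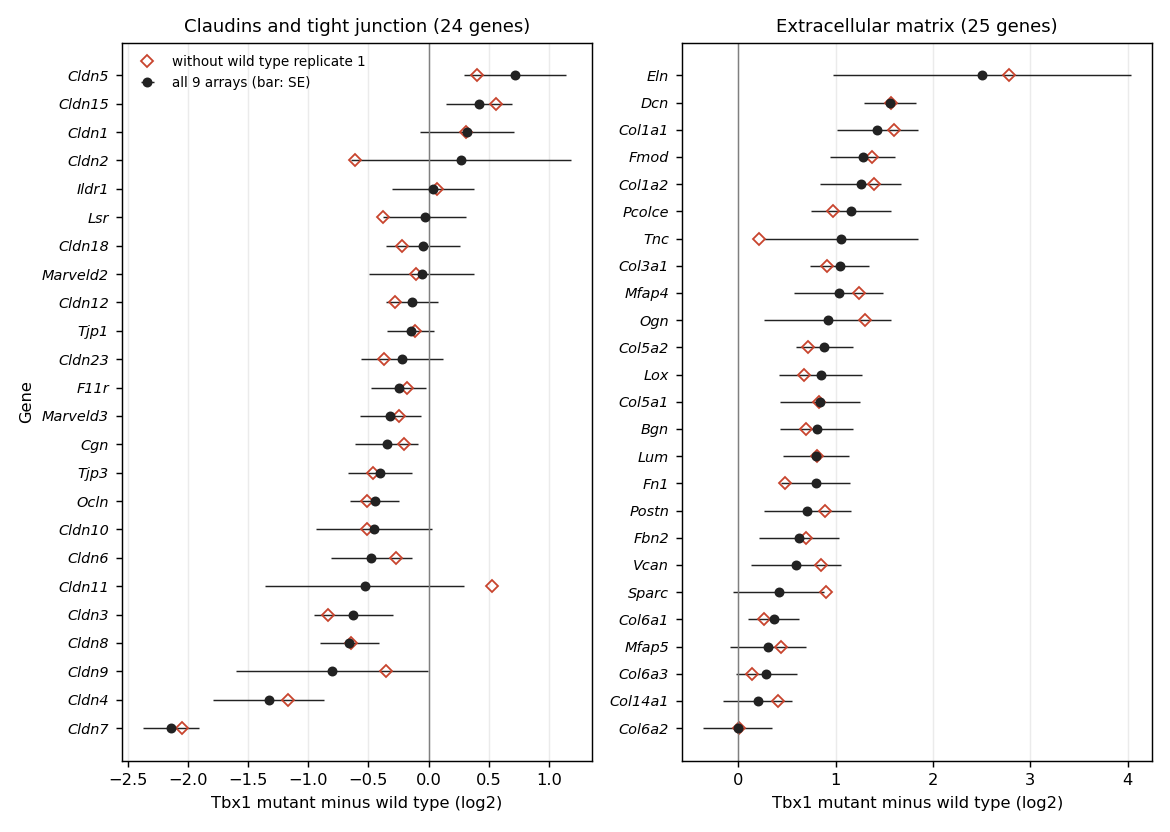
Difference between Tbx1 mutants and wild type (horizontal axis, log2) for each measured gene of the claudin and tight junction list and of the extracellular matrix list (vertical axis), as filled points with their SE from the fit on all 9 arrays and as open diamonds without wild type replicate 1. Of 24 tight junction genes, 19 lie left of 0, and of 25 matrix genes, 24 lie right of 0.

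General epithelial genes were mixed in direction. Of 32 measured genes of epithelial identity, 19 were lower and 13 higher, none called, with a median of -0.07 that became -0.35 (27 lower) without wild type replicate 1 and 0.13 without wild type replicate 2. In 19 of the 32 wild type replicate 1 was the lowest of the 6 arrays. Crb3, an apical polarity protein, read 7.0, 7.15 and 6.76 against 5.61, 5.59 and 5.98. Rab25, a GTPase of apical recycling, read 6.68, 7.62 and 6.81 against 5.44, 5.61 and 6.43. Both were lower on every mutant array, by 1.24 ± 0.28 and 1.21 ± 0.40 on the log2 scale, with adjusted p of 0.610 and 1.00 in limma (differences of -1.23 and -1.39 without wild type replicate 1). The basal and stratified epithelium list had a median of 0.20, or -0.19 without wild type replicate 1, with no called gene among 15.

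The Ccl21 chemokine genes were the next group in order of p. Ccl21 draws lymphoid progenitors and T cells through the receptor CCR7, and the parathyroid primordium is a known source of it in the fetal neck. The mouse genome holds several near copies, so probes can measure more than 1 of them. Ccl21a and the copy Gm10591 are shown here over 249 bases before the start site, in RefSeq sequence of GRCm38.p6, because they show how little separates the copies. Capitals mark the bases that differ, and the 2 are T141C and T143C, with the base of Ccl21a first and positions counted from the 5′ end. The promoter of Gm13304 was identical to that of Gm10591 over this stretch. Ccl21a lies at chr4:42773992-42774240 on the minus strand and Gm10591 at chr4:42611873-42612121 on the plus strand.
Ccl21a: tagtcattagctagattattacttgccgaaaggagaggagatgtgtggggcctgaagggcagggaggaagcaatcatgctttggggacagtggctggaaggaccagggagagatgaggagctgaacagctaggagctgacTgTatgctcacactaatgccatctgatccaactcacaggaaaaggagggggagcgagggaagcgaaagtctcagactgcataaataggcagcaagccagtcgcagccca
Gm10591: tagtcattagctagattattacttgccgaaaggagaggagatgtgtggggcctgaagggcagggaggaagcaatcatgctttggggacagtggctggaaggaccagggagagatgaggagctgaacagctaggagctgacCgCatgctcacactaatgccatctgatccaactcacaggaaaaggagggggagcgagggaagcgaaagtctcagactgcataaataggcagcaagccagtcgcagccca

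Ccl21a read 14.57, 12.15 and 13.20 in wild type and 9.58, 9.49 and 9.56 in the mutants. The wild type arrays spread widely, with wild type replicate 1 the highest, while the mutant arrays agreed closely and lay below all Foxn1 mutant arrays (11.38, 11.05 and 12.84). The difference was -3.76 ± 0.60 (13.6-fold), with an adjusted p of 0.150 in limma, and -3.13 with 0.203 without wild type replicate 1. It was -3.62 within date code A and -5.04 within code C. Gm13304 read 14.21, 11.37 and 12.85 against 8.16, 8.04 and 8.42, a difference of -4.60 ± 0.68 with an adjusted p of 0.107 (-3.90 and 0.171 without wild type replicate 1). Of the 12 clusters of lowest p on the lower side, 7 belong to Ccl21a, Ccl21b, Ccl21c, Gm10591 and Gm13304. These carry only 5 distinct sets of values, since 2 pairs of clusters hold identical ones, and are not independent. None was called in the main fit on all arrays. With array weights over the 9 arrays, the clusters of Gm13304, Gm10591, Ccl21b and Ccl21c passed (adjusted p 0.0432 in limma), and Ccl21a did not (0.0554). Without wild type replicate 2 the differences of all 7 passed the threshold, and Ccl21a then differed by -4.34. The neighbouring gene Ccl27a overlapped between groups, at 7.82, 5.81 and 6.50 against 6.75, 6.39 and 6.01, and Ccl19, also a ligand of CCR7, was under the negative-control median on all 6 arrays (2.48 to 3.15).

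Gng12, a gamma subunit of heterotrimeric G proteins, varied little within each genotype. It read 13.60, 13.63 and 13.54 in wild type and 12.51, 12.37 and 12.26 in the mutants. The Foxn1 mutant arrays lay between the groups at 12.95, 13.05 and 13.02, and no arrays overlapped. The difference was -1.21 ± 0.17 (2.32-fold), unchanged to 2 decimals without wild type replicate 1, with adjusted p of 0.107 and 0.217 in limma, and -1.03 and -1.28 within date codes A and C. The 12 clusters of lowest p on the lower side ran from Chga with -7.97 to Gng12 with -1.21, and the rule that named them asked for no overlap with wild type. All 12, which carry 10 distinct sets of values, also lay below every Foxn1 mutant array. The share of all clusters that did was not counted, so nothing is read from this.

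**Figure D3:**
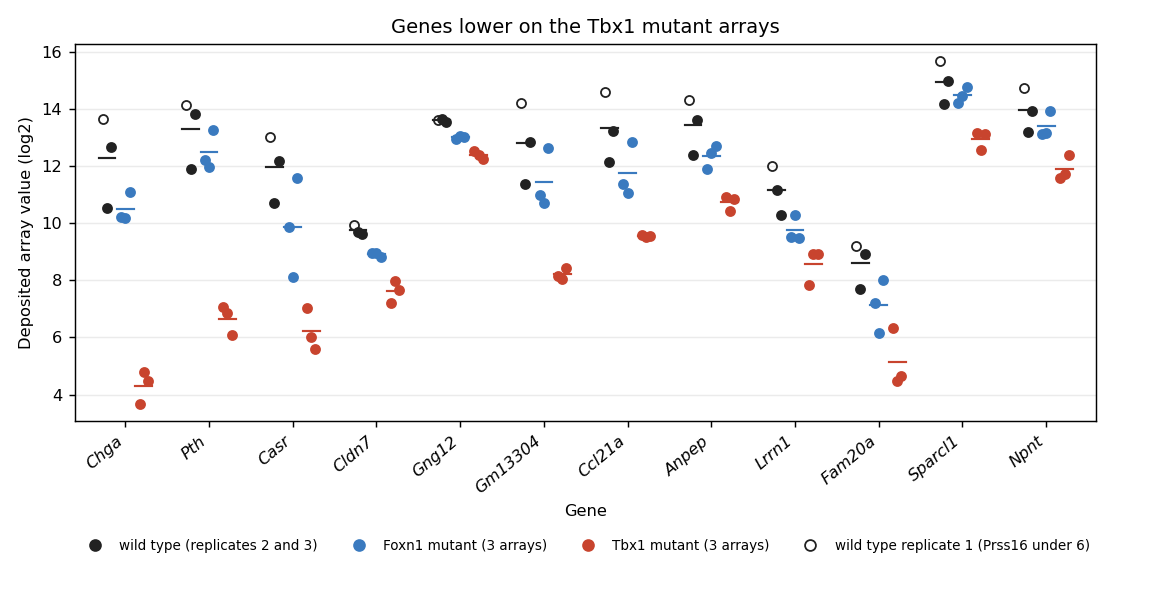
Deposited log2 value (vertical axis) of 12 genes (horizontal axis) on each wild type, Foxn1 mutant and Tbx1 mutant array, with wild type replicate 1 as an open circle and each genotype's mean over 3 arrays as a bar. In all 12 the Tbx1 mutant arrays lie below the wild type arrays, and for Ccl21a and Gm13304 they lie close together while the wild type arrays spread over more than 2 log2 units.

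Further down the order of p, 8 lower genes were picked after their values were seen and are given as description only. Anpep, the ectoenzyme aminopeptidase N, read 14.30, 12.36 and 13.59 against 10.92, 10.44 and 10.83. The difference was -2.69 ± 0.44 with an adjusted p of 0.179 in limma (-2.25 and 0.271 without wild type replicate 1). Lrrn1, a leucine-rich repeat membrane protein, read 12.01, 11.14 and 10.29 against 7.83, 8.92 and 8.91. Fam20a, a partner of a kinase of secreted proteins, read 9.19, 7.68 and 8.90 against 6.32, 4.47 and 4.65. The mutant arrays were below the wild type arrays for both, with differences of -2.59 and -3.44 (-2.16 and -3.14 without wild type replicate 1). Fam20a was under the 90th percentile of the negative controls on all mutant arrays. With that percentile in place of the mutant values, the means differed by 1.91-fold (1.55-fold without wild type replicate 1). Wild type replicate 2, at 7.68, was close to the mean of those percentiles, 7.66, so the size of the Fam20a difference is uncertain. Secreted matrix proteins were among the 8 genes: Sparcl1, at 15.66, 14.17 and 14.97 against 13.15, 12.54 and 13.11, and the integrin ligand Npnt, at 14.73, 13.17 and 13.92 against 11.57, 11.71 and 12.38. They differed by -2.0 and -2.05 (-1.63 and -1.66 without wild type replicate 1). The others were Gdpd1 (-2.91), the neurotrophin receptor gene Ngfr (-2.20) and the ubiquitin ligase gene Mkrn1 (-1.14), at -2.13, -1.76 and -0.96 without that array. All 8 were highest on wild type replicate 1, and their median was -2.40 with that array and -1.95 without it.

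Tbx1 itself could not check the genotype. It read 5.85, 4.25 and 4.54 in wild type and 5.38, 4.80 and 5.30 in the mutants, near the negative-control medians. The difference was 0.28 ± 0.41 with an adjusted p of 1.00 (0.76 and 0.959 without wild type replicate 1), and -0.04 without wild type replicate 2. The array reports 1 value per cluster, so which part of the transcript the probes read, and the position of the neo2 cassette, are not resolved here. Among 19 measured neighbours of Tbx1 on its chromosome, 10 were higher and 9 lower, none called, and 1 was lower without overlap. When wild type replicate 1 was left out, 5 were higher and 14 lower, with a median of -0.07 against 0.01 with it, and 6 were lower without overlap (13.6% of all clusters were). Dgcr2, an adhesion receptor gene of that region, read 10.85, 10.78 and 11.10 against 10.30, 10.30 and 10.34. The arrays did not overlap, and the difference was -0.59 ± 0.20 with an adjusted p of 1.00 in limma (-0.62 and 0.959 without wild type replicate 1).

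No regulator of pouch patterning was called. Of 15 measured pouch regulators, 8 were lower and 7 higher, 0 were called, and 0 had an unadjusted p under 0.05 in limma. There was 1 at that unadjusted p without wild type replicate 1, Tbx1 itself, beside 2.34% of all clusters on the higher side. Their median was -0.06 with all arrays and -0.08 without wild type replicate 1. Pax9, which the pouch endoderm needs, read 9.10, 9.62 and 9.90 against 8.70, 9.70 and 9.26. Pax1 read 8.18, 10.76 and 10.29 against 10.09, 10.46 and 10.49, and the arrays of both overlapped. Eya1, a coactivator that also serves the inner ear, kidney and neurons, read 15.40 on wild type replicate 1, 12.25 and 12.02 on the others and 11.89, 11.74 and 11.31 on the mutant arrays. The arrays did not overlap, but its difference was -1.58 with wild type replicate 1 and -0.49 without it. Foxa1, a forkhead factor of endoderm, was the other regulator without overlap, at 2.46, 2.59 and 2.31 against 2.62, 3.05 and 2.61, below the negative-control medians throughout (a difference of 0.31, and 0.32 without wild type replicate 1).

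Genes that thymic epithelium expresses under FOXN1 showed how far a single array set the result. Of 19 measured genes, 18 were higher in Tbx1 mutants with a median of 0.77, but without wild type replicate 1 only 5 were higher and the median was -0.17. None was called either way. Ccl25, the chemokine that draws progenitors through CCR9, was the only member whose arrays did not overlap, at 5.78, 5.90 and 5.88 against 6.89, 6.06 and 6.86 (0.75 ± 0.28, adjusted p 1.00, and 0.72 without wild type replicate 1). All 6 values were under the negative-control 90th percentiles of 7.03 to 8.51, and wild type replicate 1, without Prss16, read close to the other wild type arrays. The Ccl25 difference is therefore uncertain. Medullary epithelium genes were lower in 12 of 16, with a median of -0.38 (-0.34 without wild type replicate 1 and -0.18 without wild type replicate 2). The date code as a fixed block gave -0.21, and leaving out clusters with a mean under the median gave -0.87. The members of lowest p in that list are Ccl21 genes, so it is not a separate result.

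The leukocyte and T lineage lists held no called gene, and their medians changed sign without wild type replicate 1. The 14 leukocyte genes had a median of 0.54, with 11 higher, but of -0.93, with 13 lower, without it. On wild type replicates 2 and 3 the list means were 10.53 and 10.62, against 9.43, 10.05 and 9.61 on the mutant arrays. The leukocyte genes Rac2, a GTPase, and Vav1, its exchange factor, differed by 1.2 and 0.91 with all arrays and by -0.98 and -0.63 without wild type replicate 1. The T lineage list of 23 genes had a median of 0.03, or -0.49 (20 lower) without that array. Zap70, a kinase of T cell receptor signalling, read 4.90, 4.82 and 5.03 against 3.89, 4.58 and 4.18, close to the negative controls. Without wild type replicate 1, 10 of the 14 leukocyte genes and 7 of the 23 T lineage genes were lower on all mutant arrays than on both wild type arrays, where 13.6% of all clusters were. These lists were also chosen with earlier results of these data known, so the counts are description only. The interferon response list had a median of -0.12 and, without wild type replicate 1, of -0.74 (13 of 14 lower).

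On the higher side, genes of the extracellular matrix leaned upward with and without wild type replicate 1. Of 25 measured matrix genes, 24 were higher in Tbx1 mutants, and all 25 were without that array. Their median was 0.84 with it and 0.83 without it, against 0.01 and -0.01 over all clusters, and it was 0.84 within date code A and 0.70 within code C. For 13 of the 25 the mutant arrays all lay above the wild type arrays, where 5.18% of all clusters did. Without wild type replicate 1 these were 17 of the 25 and 11.5%. An unadjusted p under 0.05 in limma was reached by 10, and by 1.96% of all clusters on the higher side, but none was called. The list was chosen with earlier results of these data known, so these counts are description only. The median was lowest without Tbx1 mutant replicate 1, at 0.59, and this was the array on which 15 of the genes were highest. The list mean was 9.23, 9.06 and 9.29 in wild type and 10.49, 9.72 and 9.97 in Tbx1 mutants. In Foxn1 mutants it was 9.53, 10.62 and 9.43. Foxn1 mutant replicate 2, which lacked Prss16, was thus the highest, while Foxn1 mutant replicates 1 and 3 lay between wild type and Tbx1 mutants. Only 2 of the 25 lay above every Foxn1 mutant array, replicate 2 included, and the share of all clusters that did was not counted.

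Decorin, a small proteoglycan that binds collagen fibrils, had the lowest p of the list. Dcn read 14.61, 14.48 and 14.69 in wild type and 16.37, 15.92 and 16.17 in the mutants. The wild type arrays, replicate 1 included, lay close together, and the Foxn1 mutant arrays were also above them (15.80, 16.71 and 15.87). The difference was 1.56 ± 0.27 (2.95-fold), with an adjusted p of 0.212 in limma, and 1.57 with 0.493 without wild type replicate 1. Within date codes A and C it was 1.68 and 1.44. The fibrillar collagen gene Col1a1 read 11.96, 11.09 and 11.77 against 13.14, 12.60 and 13.36 (1.43 ± 0.41, and 1.6 without wild type replicate 1). Col3a1 read 10.53, 10.72 and 11.11 against 11.90, 11.66 and 11.93 (1.04 ± 0.30, and 0.91). Neither overlapped between groups, and both had an adjusted p of 1.00. Elastin differed through a single array: Eln read 12.91 on Tbx1 mutant replicate 1 and between 5.77 and 7.05 on the other 5. That array was also the highest in 7 of 13 pericyte and smooth muscle genes, whose list median of 0.95 became 0.46 without wild type replicate 1 and 0.40 without Tbx1 mutant replicate 1. Mylk, the myosin light chain kinase, was higher on all 3 mutant arrays, at 4.72, 4.97 and 5.32 against 6.86, 6.73 and 7.24 (1.94 ± 0.34, adjusted p 0.241, and 1.80 without wild type replicate 1).

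Of the 12 clusters of lowest p on the higher side, none was called, with adjusted p from 0.194 to 1.00 in limma. Mgp, matrix Gla protein, which inhibits calcification, came first at 7.80, 8.15 and 9.0 against 11.37, 10.49 and 11.05. The difference was 2.66 ± 0.45 (6.30-fold) with an adjusted p of 0.194, and 2.40 with 0.515 without wild type replicate 1. Slitrk4, a neuronal adhesion gene on the X chromosome, read 7.09, 7.11 and 7.26 against 9.01, 8.59 and 8.84 (1.66 ± 0.31, adjusted p 0.267, and 1.63 without wild type replicate 1). In both genes the Foxn1 mutant arrays were high too, at 9.41 or above for Mgp and 8.26 or above for Slitrk4. Entpd4, a nucleotide diphosphatase of the Golgi, was measured by 2 clusters. The first read 10.20, 9.96 and 10.37 against 11.66, 11.29 and 11.22 (1.21 ± 0.26), and the second differed by 1.36 ± 0.37 (1.22 and 1.44 without wild type replicate 1). These, the ferric reductase gene Cybrd1 (1.55 ± 0.35, and 1.16 without that array) and the galactosyltransferase gene B4galt1 (0.91 ± 0.21, and 0.79) were the 4 of the 12 that also lay above every Foxn1 mutant array. The share of all clusters above every Foxn1 mutant array was not counted. The others were Susd2 (0.99), Bicc1 (1.25), an RNA-binding protein gene, and Pym1 (0.87), a gene of exon junction complex recycling, besides Myrf and Upk3b. Susd2 differed by 0.95, Bicc1 by 1.06 and Pym1 by 0.71 without wild type replicate 1.

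**Figure D4:**
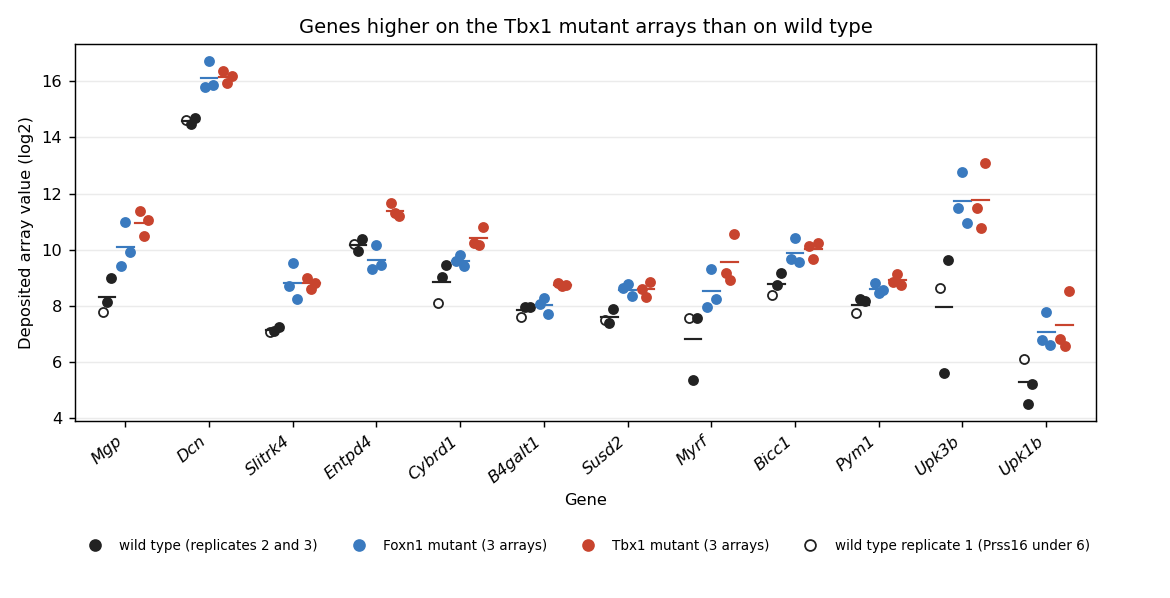
Deposited log2 value (vertical axis) of 12 genes (horizontal axis) on each wild type, Foxn1 mutant and Tbx1 mutant array, with wild type replicate 1 as an open circle and each genotype's mean over 3 arrays as a bar. The Tbx1 mutant arrays lie above the wild type arrays in all 12, the Foxn1 mutant arrays are also high for most, and Upk3b, Myrf and Upk1b are highest among Tbx1 mutants on replicate 3.

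Myrf and Upk3b are known from mesothelium, the lining of body cavities that also covers organs near the heart. A list of its genes was drawn up after their values were seen and serves only to describe them. Upk3b, a uroplakin, read 8.63, 5.62 and 9.63 in wild type and 11.48, 10.77 and 13.10 in the mutants. The groups did not overlap, and the Foxn1 mutant arrays were as high (11.50, 12.78 and 10.94). The difference was 3.82 ± 0.98 with an adjusted p of 0.970 in limma, and 4.15 with 0.926 without wild type replicate 1. The transcription factor gene Myrf read 7.57, 5.37 and 7.57 against 9.18, 8.92 and 10.55 (2.71 ± 0.66, adjusted p 0.811, and 3.08 without wild type replicate 1). Wt1 read 5.52, 4.04 and 5.21 against 5.99, 5.87 and 7.64, and Gpm6a read 8.41, 8.92 and 9.61 against 10.68, 10.16 and 12.38. They differed by 1.57 and 2.10 (1.87 and 1.81 without wild type replicate 1). Of 15 measured genes of the list, 13 were higher and 8 did not overlap, where 5.18% of all clusters were higher without overlap, and nothing is read from this count because of how the list was made. The list had a median of 1.16 (0.95 without wild type replicate 1, and 0.71 and 1.23 within date codes A and C). In 13 of the 15, Tbx1 mutant replicate 3 was the highest of the 6 arrays, and the list means were 6.92, 6.70 and 8.07 on the mutant arrays against 6.10, 5.60 and 6.20. The defining marker Msln, mesothelin, was near the negative-control medians on every array (4.14 to 4.70).

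In a list of genes linked to Tbx1 in the heart and pharynx, Tbx1 mutant replicate 3 was the highest of the 6 arrays in only 2. Wild type replicate 1 was the highest in 12. Of 26 measured genes, 13 were higher and 13 lower, with a median of -0.01 (0.12 without wild type replicate 1) and none called. Gata4, a cardiac and mesothelial transcription factor, read 5.83, 4.64 and 4.5 against 6.44, 5.75 and 8.21 (1.81 ± 0.60, adjusted p 1.00, and 2.24 without wild type replicate 1). Aldh1a2, which makes retinoic acid, read 8.08, 7.38 and 8.03 against 8.17, 8.78 and 10.01 (1.15 ± 0.50, and 1.28 without wild type replicate 1). Tbx1 mutant replicate 3 was the highest array in both, and the Gata4 arrays overlapped. The ligand gene Fgf8, an established target of Tbx1, was below the negative-control medians on all 6 arrays (2.33 to 2.81). In the mesenchyme and neural crest list, 14 of 19 genes were higher, with a median of 0.17 (0.25 without wild type replicate 1 and 0.018 without wild type replicate 2). Tbx18, a T-box factor of epicardium and mesenchyme, read 5.38, 5.30 and 5.95 against 6.66, 6.56 and 7.17, with no overlap (1.25 ± 0.29, adjusted p 0.722, and 1.17 without wild type replicate 1).

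Genes of tissues beside the thymus varied from sample to sample within the wild type group. The 14 neuron and glia genes had a median of -1.34, and of -0.18 without wild type replicate 1, the array on which 12 of them were highest. The 15 skeletal muscle genes were all lower, with a median of -0.77, but 13 were highest on wild type replicate 2, and without it the median was 0.05 (-1.22 without wild type replicate 1). Erythroid genes had a median of -0.33 over 9 (-0.17 without wild type replicate 1, and -1.55 where clusters with a mean under the median were left out). Alas2, the first enzyme of haem synthesis in red cells, read 14.74, 13.34 and 14.42 against 13.06, 11.41 and 12.22. The arrays did not overlap, and the difference was -1.94 ± 0.46 with an adjusted p of 0.768 in limma (-1.65 and 0.959 without wild type replicate 1). Ibsp, a mineral-binding sialoprotein gene, read 9.19, 5.92 and 7.82 against 3.52, 4.61 and 3.56. The arrays did not overlap, and the difference was -3.75 ± 0.76 with an adjusted p of 0.470 (-2.97 and 0.654), though all mutant values were near or under the negative-control medians.

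No gene of the signalling lists was called. Without overlap, 1 was higher and 1 lower of 19 in the FGF list, 1 and 3 of 18 in BMP, 3 and 1 of 19 in WNT, 0 and 0 of 12 in hedgehog, 1 and 1 of 14 in retinoic acid, and 2 and 0 of 17 in NOTCH, where 5.18% and 4.26% of all clusters were. Without wild type replicate 1 these counts were 1 and 7 in FGF, 1 and 3 in BMP and 4 and 2 in WNT. They were 2 and 1 in hedgehog, 3 and 2 in retinoic acid and 2 and 3 in NOTCH. Of all clusters 11.5% and 13.6% were then without overlap. The lists were chosen with earlier results of these data known, so the counts are description only. The medians of these lists lay between -0.20 (FGF) and 0.36 (NOTCH), and between -0.25 and 0.17 without wild type replicate 1. The FGF median turned to 0.05 without wild type replicate 3. Bambi, a decoy receptor of BMP and TGF-beta signalling, read 7.0, 7.41 and 8.08 against 8.81, 8.36 and 9.44 (1.37 ± 0.37, adjusted p 1.00, and 1.13 without wild type replicate 1). The secreted WNT antagonist gene Sfrp1 read 7.47, 6.31 and 7.25 against 8.35, 7.63 and 9.02 (1.32 ± 0.50, adjusted p 1.00, and 1.55). Neither overlapped between groups. The FGF response gene Etv4 read 6.57, 7.67 and 8.55 against 7.35, 6.97 and 6.90, and overlapped. Hypoxia and glycolysis genes had a median of -0.20, or -0.52 with 13 of 14 lower without wild type replicate 1, and -0.02 without Tbx1 mutant replicate 1. Ndrg1, a gene induced by hypoxia, read 9.99, 9.90 and 12.05 against 8.71, 8.72 and 9.10 (-1.80 ± 0.60, adjusted p 1.00, and -2.13). Its mutant arrays lay below the wild type arrays, with wild type replicate 3 far above the rest.

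**Figure D5:**
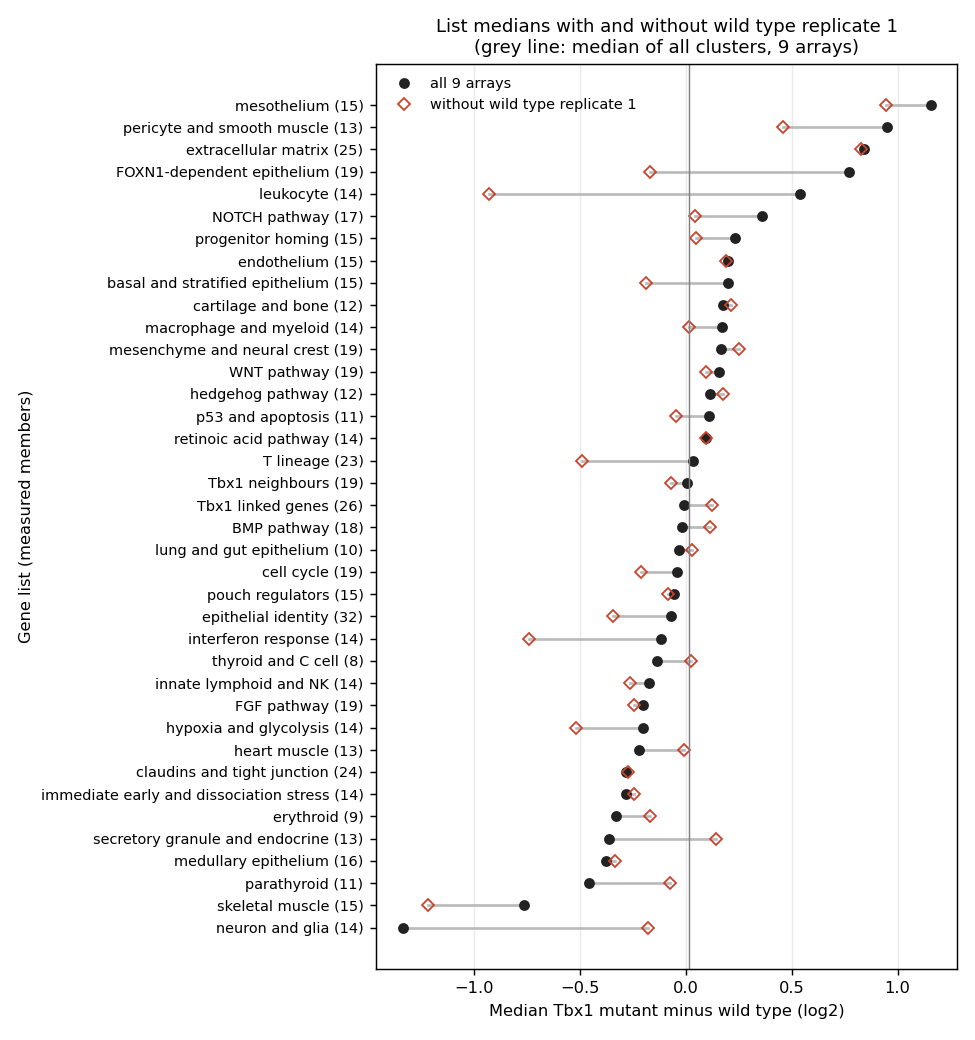
Median difference between Tbx1 mutants and wild type over the measured members (horizontal axis, log2) of each gene list (vertical axis, with the number of members measured), with all 9 arrays (filled) and without wild type replicate 1 (open). Extracellular matrix (0.84 and 0.83) and claudins (-0.28 and -0.27) hardly move, while leukocyte (0.54 and -0.93) and FOXN1-dependent genes (0.77 and -0.17) change sign.

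The core T-box motif AGGTGT, searched on both strands in RefSeq promoters of 300 bases (GRCm38.p6, 250 before to 50 after the start), was used to describe the genes of lowest p. It was in 0 of 11 promoters of the 9 lower genes with an entry and in 0 of 5 promoters of the 4 higher genes with one. Ccl21a, Ccl21b, Gm10591 and Gm13304 among the lower genes are near copies, so their promoters do not count separately. Of all 32851 promoters in the table, 4514 (13.7%) hold it. No match says only that these letters are not in these windows.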

How the data were processed

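Total RNA of 9 samples of embryonic thymic lobes, 3 of each genotype, was measured on Clariom S arrays. The values were used as the authors deposited them, on the log2 scale (1.80 to 19.8 over the clusters tested); their software, normalization and build were not given in the sources used here. Of 28846 features, 5222 negative controls and 1482 others were left out, and 22142 transcript clusters were tested. Of these, 19527 had 1 gene symbol, 2615 had none or several, and 254 shared their values with another. Gene names came from GEO's platform annotation and RefSeq (GRCm38.p6).

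With limma 3.58.1 (R 4.3.3; lmFit and eBayes, two-sided) 1 linear model with the 3 genotypes was fitted over the 9 arrays, which share 1 estimate of the spread. P-values were adjusted over 22142 clusters with a threshold of 0.05. The same fit was made without wild type replicate 1, the array among the 6 compared on which Prss16 was under 6. Signed differences are Tbx1 mutant minus wild type, and errors are SEs from the fit. Negative-control medians were 4.27 to 4.94 and 90th percentiles 7.03 to 8.51. The fit was also run on simulated arrays with independent noise, without outlying arrays or date codes. That run checks the code only, and nothing about the calls made here is read from it. The number of arrays limits the precision: an exact permutation test of 3 against 3 cannot go below 0.10.

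Genes were named by a rule: Tbx1, Prss16, Pth, Chga, Casr and called genes; the 12 clusters of lowest p per direction with 1 symbol, no overlap of arrays and values above the 90th percentile of the negative controls on every array of the higher genotype; and the 4 members with the lowest p in each list, with all members of the parathyroid, pouch and claudin lists. A gene with several clusters was represented in a list by the one of highest mean. The members and the 38 lists were chosen with earlier results of these data known. Eln, Ccl27a and Ccl19, the genes of the mesothelium list and the 8 further lower genes were chosen after their values were seen. Alternatives were quantile normalization, median centring, filters on low means (16606 and 11071 clusters left), array weights, robust moderation with an intensity trend, a fixed or random block for the date code, the 6 arrays alone, 1 cluster of each identical set, a threshold of 0.1, and leaving out arrays. Figures were drawn with matplotlib.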

Additional observations from a re-analysis of the deposited data

How the results depend on the processing

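With array weights limma called 1 cluster higher and 16 lower, among them Casr and Gng12 (adjusted p 0.0432 for each). With the date code as a fixed block it called 1 lower, and on the Tbx1 mutant and wild type arrays alone 0 lower. Leaving out each array in turn gave 0 to 20 lower, with 20 without wild type replicate 2, 2 without wild type replicate 1, 5 without Tbx1 mutant replicate 1, and 0 without wild type replicate 3, Tbx1 mutant replicate 2 or Tbx1 mutant replicate 3. Without wild type replicate 1 from the start, array weights gave 1 higher and 12 lower, the fixed block 0 lower and the Tbx1 mutant and wild type arrays alone 0 lower, and leaving out a further array gave 0 to 1 higher and 0 to 25 lower (25 without wild type replicate 3). The cause was not tested. Of all counts under alternatives, 52 stayed within 1.5 times of the main one. Over 17 alternatives Chga differed by -8.86 to -7.29 and was called in 13, Pth by -7.32 to -6.20 and was called in 12, and Cldn7 by -2.33 to -1.94 and was called in 8.

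Without wild type replicate 1, differences turned for Scg3 (0.14; -1.51 to 0.14 over the arrays left out in turn), Phlda3 (-0.049; -0.049 to 0.85), Ccng1 (-0.045; -0.045 to 0.81), Prss16 (-0.10; -0.10 to 4.99), Krt17 (-0.33; -0.33 to 2.70), Gzma (-0.57; -0.57 to 5.74), Bub1 (0.0175; -0.51 to 0.0175), Rac2 (-0.98; -0.98 to 2.34) and Vav1 (-0.63; -0.63 to 1.80). Leaving out Foxn1 mutant replicate 2, also low in Prss16, as well gave the same differences. Array weights turned Rac2 (-0.20) and Vav1 (-0.044), and the fixed date block turned Tbx1 (-0.063; -0.038 to 0.76 over the arrays left out in turn). Without wild type replicate 2, Myh7 turned (-1.04 to 0.23) and so did Tshr (-0.73 to 0.030). The replicate numbers were given in accession order and pair no samples, so the date code was fitted as the block instead. Values near the negative controls have no reliable order, and where an array was left out, the spread of its genotype was taken to equal that of the rest.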
